A study of Mus musculus with 8 samples.

Results

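The genes described here are the metallothioneins Mt1 and Mt2, their regulator Mtf1, the zinc exporter gene Slc30a1 and the zinc importer genes Slc39a5, Slc39a8, Slc39a10 and Slc39a14 in the kidney cortex of mice on a high phosphate (Pi) diet. These are 8 of the 17457 genes listed in the deposited expression tables, found by their symbols. The set was chosen by a measured value, the higher Mt2 in mice on the high Pi diet, so the difference of Mt2 between the diets is given as a description with no test. The other 7 genes have known roles in zinc handling, but they were chosen with earlier results of these data known. They also come from the same 8 mice and the same diets, so their p-values belong to genes not picked independently of the data. All 8 genes passed the filter on low values (at least 0.5 FPKM in at least 4 mice), as did 12383 of all genes. FPKM is the number of sequenced fragments per kilobase of transcript and relative to all fragments of the library, a level that can be compared between genes.

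Male C57BL/6J mice, an inbred wild-type strain, aged 8 to 16 weeks, ate a high Pi diet (1.2% phosphate) for 3 days, and the control mice ate a normal Pi diet (0.6% phosphate) for the same time. Kidney cortex mRNA of 4 mice on each diet was sequenced, with 1 library per mouse. No agent or allele other than the diet distinguished the groups. Because whole cortex was sequenced, fewer cells of a type and less RNA per cell cannot be told apart in any value below.

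Metallothioneins are small cysteine-rich proteins that bind zinc, copper and cadmium inside cells. MTF1 is a zinc-sensing transcription factor that moves to metal response elements in DNA when free zinc rises, and the metallothionein genes and Slc30a1 are its best known targets. ZnT proteins (Slc30 genes) carry zinc out of the cytoplasm, and ZIP proteins (Slc39 genes) carry zinc into it. In the kidney, proximal tubule cells take up filtered metallothionein with its bound metal, and metallothionein genes are also known to respond to glucocorticoids, oxidants and inflammatory signals.

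The promoters of the 3 members best known as MTF1 targets are shown because metal response elements lie in such regions. The windows hold 250 bases before and 50 bases after a transcription start, from RefSeq on GRCm38.p6, printed 5′ to 3′ on the plus strand, the coding strand of all 3 genes. Capitals mark matches to the metal response element core, searched as TGCACNC and TGCGCNC on both strands. The windows are chr8:94178839-94179138 for Mt1, chr8:94172368-94172667 for Mt2 and chr1:191906531-191906830 for Slc30a1. The annotated gene spans of Mt1 and Slc30a1 begin elsewhere than these starts, so their windows overlap the gene spans by more than 50 bases.
Mt1: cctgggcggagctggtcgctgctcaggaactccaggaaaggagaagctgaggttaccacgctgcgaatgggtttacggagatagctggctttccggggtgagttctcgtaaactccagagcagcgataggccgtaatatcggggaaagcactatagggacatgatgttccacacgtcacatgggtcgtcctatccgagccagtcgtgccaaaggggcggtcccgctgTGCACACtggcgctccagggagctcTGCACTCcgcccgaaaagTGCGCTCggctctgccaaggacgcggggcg
Mt2: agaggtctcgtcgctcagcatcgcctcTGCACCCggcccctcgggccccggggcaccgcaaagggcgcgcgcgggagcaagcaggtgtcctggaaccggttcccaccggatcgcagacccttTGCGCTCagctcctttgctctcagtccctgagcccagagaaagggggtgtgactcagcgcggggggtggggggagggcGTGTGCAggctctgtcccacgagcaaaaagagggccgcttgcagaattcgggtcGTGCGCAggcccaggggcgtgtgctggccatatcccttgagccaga
Slc30a1: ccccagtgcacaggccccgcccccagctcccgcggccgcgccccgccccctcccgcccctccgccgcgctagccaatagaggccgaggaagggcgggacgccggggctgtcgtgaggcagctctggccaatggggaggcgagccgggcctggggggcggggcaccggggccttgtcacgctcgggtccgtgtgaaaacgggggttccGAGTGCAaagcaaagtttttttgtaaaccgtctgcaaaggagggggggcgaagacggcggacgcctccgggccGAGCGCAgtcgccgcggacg

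Mt2 held 4 matches in its window, and at least 4 were found in 0.517% of the 32851 promoter windows of the same length. Mt1 held 3 matches, and 1.97% of all windows held at least 3. Slc30a1 held 2 matches, where 7.11% of all windows held at least 2, and both lay on the minus strand. The match closest to the start of Mt1 on its upstream side was TGCACAC at bases -23 to -17, and for Mt2 it was a minus-strand match, printed above as GTGTGCA, at -50 to -44. At least 1 match was present in 25.7% of all windows, and among the other members with a window, 1 match each was found in 1 of the windows of Slc39a5 and of Slc39a8. The windows of Mtf1 and Slc39a10 had no match, and no window was given for Slc39a14. A match describes letters in a window and does not show a bound site.

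The 8 libraries were estimated to hold 13000000 to 14200000 fragments. This depth was read from the step between the lowest FPKM values, because FPKM does not give it, and 75.5% to 79.9% of those low values fell within 0.15 of a whole fragment. At that depth the members with the fewest and the most fragments were Slc39a14, with 140 to 245 per library, and Mt1, with 1157 to 2234, and intervals from such numbers would cover counting error only. High Pi replicate 1 stood apart, with a distance (root mean square over genes, log2 scale) of 0.299, where the other high Pi libraries had 0.171 to 0.212 and the normal Pi libraries 0.138 to 0.191. Across genes, the deviation of a library from the mean of all 8 had a Spearman correlation with mRNA length of 0.33 for high Pi replicate 1, -0.41 for high Pi replicate 3 and -0.11 to 0.27 for the other 6. In the fit across all genes (limma-trend on log2(FPKM + 1), Benjamini-Hochberg adjusted p under 0.05), 22 genes were higher and 15 lower on high Pi. Without high Pi replicate 1 the counts were 156 and 267, and without any other single library they were 3 to 14 and 1 to 6. Summed FPKM of 8 proximal tubule S1 and S2 markers was 3937 to 4536 on high Pi and 4817 to 5580 on normal Pi, with no overlap. Most of each sum came from Slc34a1 alone, with 2764 to 3163 FPKM on high Pi and 3529 to 4146 FPKM on normal Pi. Without Slc34a1 the sum overlapped between the diets, although Slc5a2 did not (182 to 246 against 275 to 312 FPKM). Slc34a1 encodes the phosphate cotransporter Npt2a, which the study describes as lowered by FGF23, so it may not follow cell number alone. The log2 fold change was below 0 for 6 of the 8 markers and above 0 for Slc22a6 (0.08) and Slc22a8 (0.09). By limma-trend 0 of the 8 were called, though an unadjusted p under 0.05 was reached by 3, all lower. None of these markers was at 0 in every library.

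Mt2 (gene ID 17750, chromosome 8, 94172618 to 94173567 of GRCm38.p6) had 157.78, 157.37, 212.78 and 149.99 FPKM in high Pi replicates 1 to 4, against 97.93, 107.13, 97.30 and 121.37 FPKM in normal Pi replicates 1 to 4. High Pi replicate 3 was the highest, well above the other mice on its diet, and every mouse on high Pi lay above every mouse on normal Pi. The mean was 170 ± 29.1 FPKM on high Pi and 106 ± 11.2 FPKM on normal Pi (SD, n = 4 each), a 1.60-fold difference. The fitted log2 fold change was 0.66 with a standard error of 0.110. With high Pi replicate 3 left out it was 0.55, the lowest value under any setting tried. This library also had the strongest length trend, and Mt1 and Mt2 have short mRNAs. With the length trend removed, the log2 fold change was 0.65 for Mt2 and 0.46 for Mt1. These are the values that chose the set.

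Mt1 (gene ID 17748, chromosome 8, 94178883 to 94180327) lies 5315 bases downstream of Mt2 and encodes the other widely expressed metallothionein. It had 318.44, 246.32, 360.50 and 270.24 FPKM in the mice on high Pi, against 198.14, 228.17, 212.52 and 215.45 FPKM in the mice on normal Pi. The groups did not overlap, although high Pi replicate 2 was close to the highest normal Pi mouse. Mean Mt1 was 299 ± 50.9 FPKM on high Pi and 214 ± 12.3 FPKM on normal Pi (SD, n = 4 each), a 1.40-fold difference. The log2 fold change was 0.47 (standard error 0.106, 95% interval 0.24 to 0.70), with an unadjusted p of 0.000846 and a limma-trend adjusted p of 0.118, so Mt1 did not pass the threshold. With libraries weighted by their fit it passed, at a log2 fold change of 0.38 and a limma-trend adjusted p of 0.0321, a setting in which 3.76% of all genes were called. An exact two-sided permutation test over the 70 assignments of the 8 mice was run for each of the 7 members other than Mt2, and Mt1 gave an unadjusted p = 0.0286, the smallest that 4 mice against 4 allow. Groups with no overlap always give this p in that test, so it only restates the lack of overlap.

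**Figure D1:**
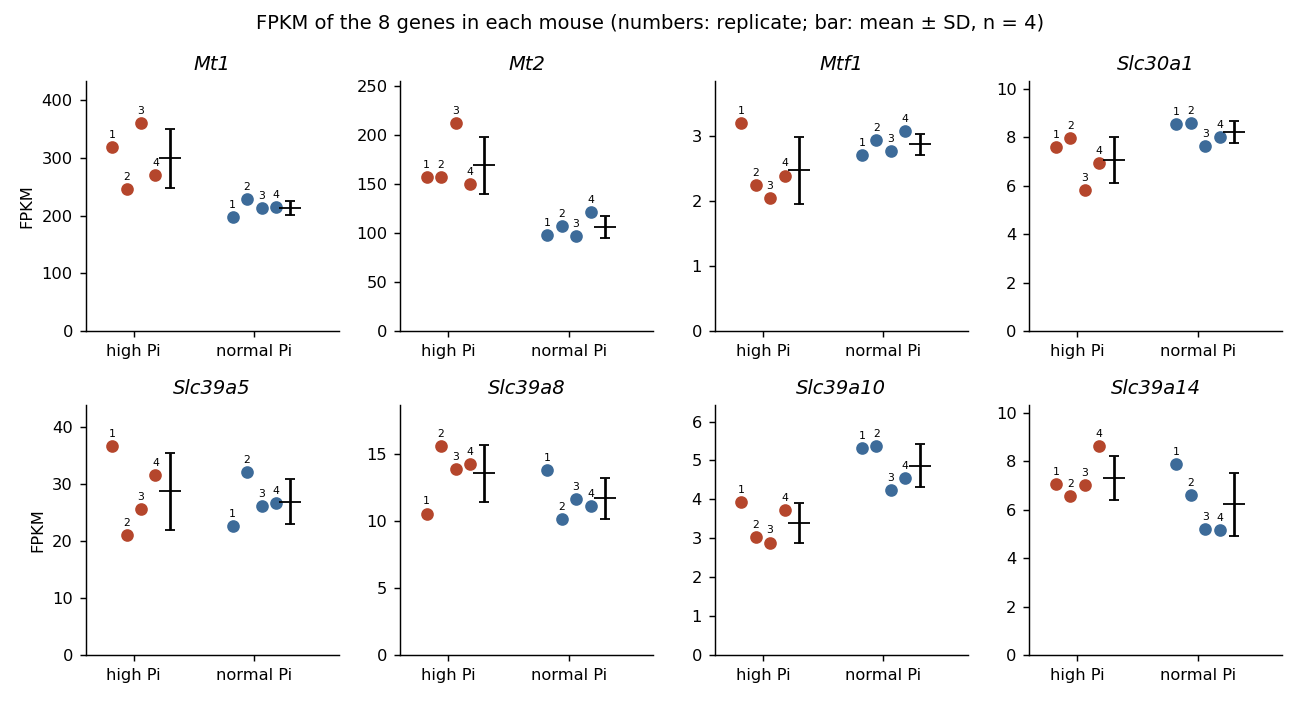
FPKM (y axis, from 0) of the 8 genes in each mouse, with high Pi on the left and normal Pi on the right of each panel, replicate numbers beside the points, and the mean ± SD of 4 mice as a bar. Mt1 and Mt2 on high Pi lie above all normal Pi mice, Slc39a10 lies below all of them, and the other 5 genes overlap between diets.

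The level of Mt1 was above that of Mt2 in all 8 mice on the FPKM scale, which corrects for transcript length. The ratio of Mt1 to Mt2 was 2.02, 1.57, 1.69 and 1.80 in the mice on high Pi, against 2.02, 2.13, 2.18 and 1.78 in the mice on normal Pi. The ratio averaged 1.77 ± 0.192 on high Pi and 2.03 ± 0.182 on normal Pi (SD, n = 4 each), and the ranges overlapped. The ratio uses the value that chose the set and was not tested. Together the genes took 0.0594% to 0.0796% of summed FPKM on high Pi and 0.0450% to 0.0525% on normal Pi, with no overlap. This share also holds the value that chose the set, and neither gene overlapped on its own. It is therefore no further result and was not tested. The coding sequences of Mt1 and Mt2 are both 186 bases long and identical at 148 of them (79.6%), and the longest run shared by the 549-base Mt1 and 511-base Mt2 mRNAs is 20 bases. How fragments from shared stretches were counted is not given in the sources used here.

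**Figure D2:**
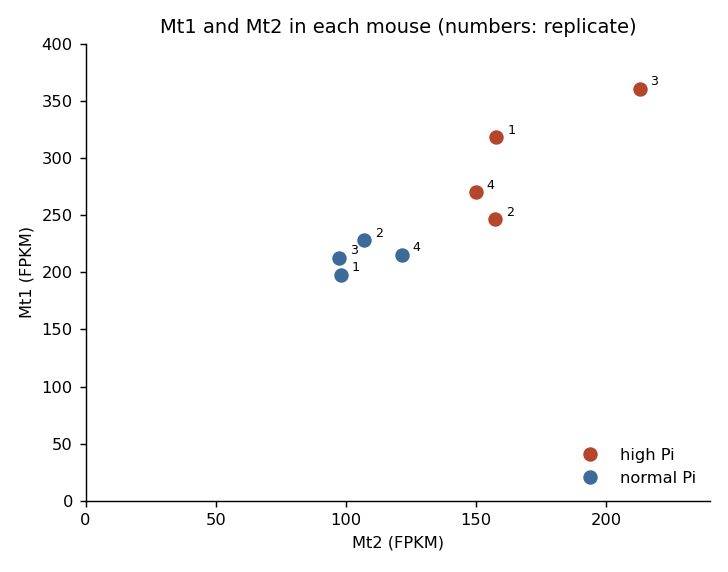
Mt1 (y axis, FPKM) against Mt2 (x axis, FPKM) in each mouse, with high Pi in red, normal Pi in blue and replicate numbers beside the points. The mice on high Pi lie above 246 FPKM of Mt1 and at or above 149.99 FPKM of Mt2, and high Pi replicate 3 is highest for both.

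Mtf1 (gene ID 17764, chromosome 4, 124802549 to 124849800), the zinc-sensing regulator, had 3.20, 2.24, 2.04 and 2.39 FPKM on high Pi, against 2.71, 2.93, 2.77 and 3.07 FPKM on normal Pi. High Pi replicate 1 was the highest of all 8 mice, while the other 3 mice on high Pi were below every mouse on normal Pi. Its log2 fold change was -0.17 (standard error 0.106, 95% interval -0.40 to 0.06, adjusted p = 0.689 by limma-trend). Without high Pi replicate 1 it was -0.26, with an adjusted p of 0.117 by limma-trend, and without high Pi replicate 3 it was -0.11, with 0.932. Mtf1 had the lowest level of the 8 genes, with means of 2.47 ± 0.509 FPKM on high Pi and 2.87 ± 0.163 FPKM on normal Pi (SD, n = 4 each). Its annotated span overlaps another gene, 1110065P20Rik, and whether counting used strand is not given in the sources used here.

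Slc30a1 (gene ID 22782, chromosome 1, 191906697 to 191913248) encodes ZnT1, the zinc exporter of the plasma membrane. It had 7.57, 7.96, 5.80 and 6.94 FPKM on high Pi, against 8.53, 8.59, 7.64 and 8.02 FPKM on normal Pi. The groups overlapped through high Pi replicate 2, which lay above 1 normal Pi mouse. The mean was 7.07 ± 0.944 FPKM on high Pi and 8.20 ± 0.450 FPKM on normal Pi (SD, n = 4 each). The log2 fold change was -0.20 (standard error 0.0958, 95% interval -0.40 to 0.01, adjusted p = 0.573 by limma-trend), opposite in sign to those of Mt1 and Mt2. Without high Pi replicate 3 it was -0.12 (adjusted p = 0.871 by limma-trend). Slc30a1 overlaps 1700034H15Rik in the annotation.

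Slc39a10 (gene ID 227059, chromosome 1, 46807544 to 46925776) encodes ZIP10, a plasma membrane zinc importer whose transcription is known to be held back by MTF1 in mouse cells. It had 3.94, 3.03, 2.89 and 3.72 FPKM on high Pi, against 5.32, 5.36, 4.23 and 4.56 FPKM on normal Pi. All 4 mice on high Pi were below all 4 on normal Pi. Mean Slc39a10 was 3.40 ± 0.514 FPKM on high Pi and 4.87 ± 0.562 FPKM on normal Pi (SD, n = 4 each), 0.698 times as high. The log2 fold change was -0.42 (standard error 0.107, 95% interval -0.65 to -0.19), with an unadjusted p of 0.00213 and a limma-trend adjusted p of 0.164, so Slc39a10 did not pass the threshold in all 8 mice. Leaving out high Pi replicate 1 made it pass (log2 fold change -0.48, adjusted p = 0.0305 by limma-trend), a setting that called 3.44% of all tested genes. Weighting the libraries by their fit also made it pass (adjusted p = 0.0372 by limma-trend), where 3.76% of all tested genes were called. The fit with all 8 mice and no weights called 0.299%. In the remaining settings the adjusted p of Slc39a10 was above 0.05. The exact two-sided permutation test gave an unadjusted p = 0.0286, the smallest possible, which the lack of overlap fixed in advance.

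Slc39a5 encodes ZIP5, an importer of the basolateral membrane of epithelial cells, and was the most abundant of the 4 importers. It (gene ID 72002, chromosome 10, 128395927 to 128401276) had 36.52, 21.00, 25.62 and 31.47 FPKM on high Pi, against 22.65, 32.04, 26.10 and 26.65 FPKM on normal Pi. The mice on high Pi held both the highest and the lowest value. Its log2 fold change was 0.07 (95% interval -0.26 to 0.40, adjusted p = 0.946 by limma-trend), and it became -0.05 without high Pi replicate 1 and -0.0041 without normal Pi replicate 1.

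Slc39a8 and Slc39a14 encode ZIP8 and ZIP14, which carry manganese and iron as well as zinc. Slc39a8 (gene ID 67547, chromosome 3, 135816882 to 135888572) had 10.58, 15.60, 13.91 and 14.25 FPKM on high Pi, against 13.82, 10.17, 11.70 and 11.13 FPKM on normal Pi. Of the mice on high Pi, 3 were above every mouse on normal Pi, and replicate 1 was below 3 of them. On the log2 scale the difference was 0.19 (standard error 0.118, adjusted p = 0.674 by limma-trend). It was 0.30 without high Pi replicate 1 (adjusted p = 0.117) and 0.13 without high Pi replicate 2 (adjusted p = 0.901), and 0.30 with library weights (adjusted p = 0.0772), all by limma-trend. Slc39a8 overlaps 4933401H06Rik in the annotation. Slc39a14 (gene ID 213053, chromosome 14, 70303467 to 70351452) had 7.07, 6.56, 7.02 and 8.62 FPKM on high Pi, against 7.90, 6.63, 5.19 and 5.17 FPKM on normal Pi. The groups overlapped, with normal Pi replicate 1 above 3 mice on high Pi. The difference was 0.22 on the log2 scale (standard error 0.127, adjusted p = 0.658 by limma-trend). It was 0.14 without high Pi replicate 4 (adjusted p = 0.910) and 0.35 with library weights (adjusted p = 0.127), both by limma-trend.

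Of the 7 members other than Mt2, 0 passed limma-trend at an adjusted p of 0.05 in either direction, where 0.178% of all tested genes were called higher and 0.121% lower. At an unadjusted p under 0.05 there were 2, Mt1 and Slc39a10, beside 9.35% of all tested genes. Among these 7, Mt1 was the only one with no overlap between diets in the higher direction and Slc39a10 the only one in the lower direction, beside 2.41% and 2.62% of all tested genes. In the exact two-sided permutation tests, the other 5 had an unadjusted p of 0.0571 (Slc30a1), 0.171 (Mtf1), 0.229 (Slc39a8), 0.229 (Slc39a14) and 0.771 (Slc39a5). These shares of all genes describe the table and were not tested against the members, which are few. No count test was run, because the deposited values are FPKM.

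**Figure D3:**
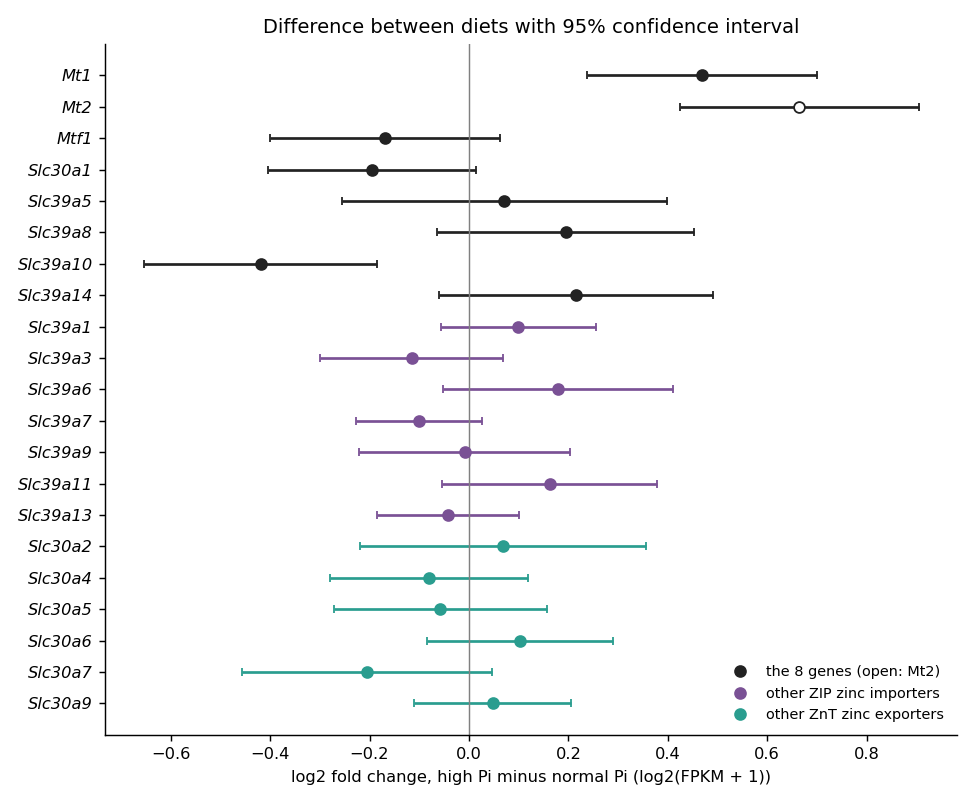
Log2 fold change (x axis, high Pi minus normal Pi, on the log2(FPKM + 1) scale) with its 95% confidence interval for the 8 genes in black, other ZIP genes in purple and other ZnT genes in green. Mt2 is drawn open because it chose the set, and among the rest the intervals of Mt1 (0.24 to 0.70) and Slc39a10 (-0.65 to -0.19) leave out 0.

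The transcript tables listed 30 transcripts of the 8 genes, of which 12 were above 0 in every library. The whole value of Mtf1 and Mt2 came from 1 transcript each, and NM_013602.3 held 99.8% of Mt1 and NM_172653.2 held 96.3% of Slc39a10. Slc39a8 was spread most, with 60.2% in its leading transcript, XM_006501934.2. Slc39a14 was mostly NM_001135151.1 (71.0% of the gene), which had 4.81, 5.95, 5.54 and 6.22 FPKM on high Pi, against 2.77, 5.90, 3.94 and 3.29 FPKM on normal Pi. Only normal Pi replicate 2 reached into the range of the mice on high Pi. In normal Pi replicate 1 another transcript, NM_001135152.1, had 4.08 FPKM, while it was at 0 in the other 3 mice on that diet and at 0.89, 0.14, 0 and 1.24 FPKM on high Pi. How fragments are divided between such isoforms is uncertain, so these values describe the tables.

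Of 16 member transcripts tested with those of Mt2 left out, 0 passed limma-trend over all transcripts, where 0.0221% of all tested transcripts were called. An unadjusted p under 0.05 was reached by 3 of the 16, beside 7.10% of all transcripts. These were NM_013602.3 of Mt1 (log2 fold change 0.47), NM_172653.2 of Slc39a10 (-0.43) and NM_001135151.1 of Slc39a14 (0.45). The leading transcripts of Slc30a1 (NM_009579.3), Slc39a5 (NM_001136237.1) and Slc39a8 (XM_006501934.2) overlapped between the diets.

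**Figure D4:**
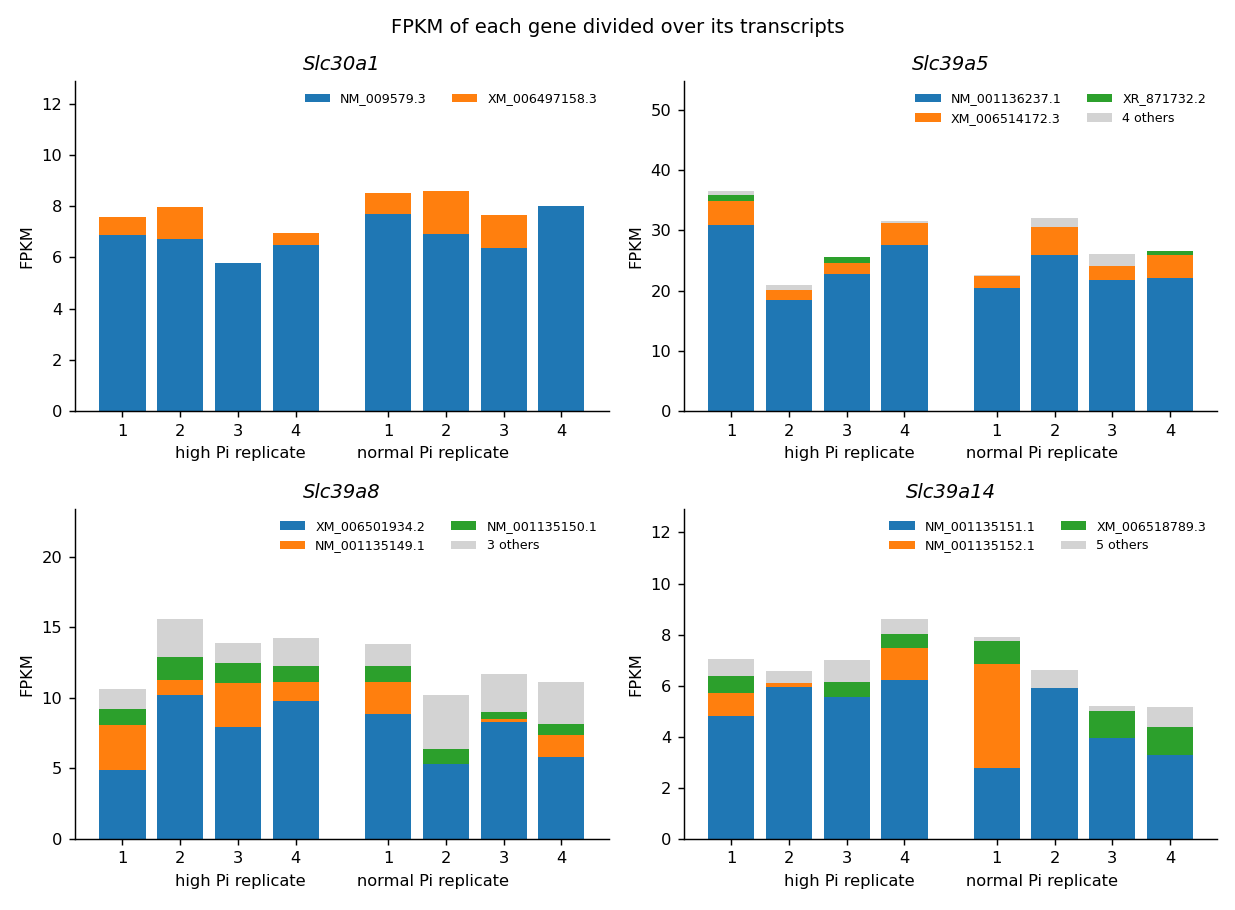
FPKM (y axis) of Slc30a1, Slc39a5, Slc39a8 and Slc39a14 in each mouse as stacked bars of the transcripts listed for each gene, the 3 most abundant in colour and the others in grey, with the 4 mice on high Pi left of the 4 on normal Pi. NM_001135152.1 of Slc39a14 reaches 4.08 FPKM in normal Pi replicate 1 and at most 1.24 FPKM elsewhere.

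The other zinc transporters had log2 fold changes between -0.21 and 0.18. Among 10 other ZIP genes, 7 were tested and 0 were called (0 with an unadjusted p under 0.05), with a median log2 fold change of -0.009 beside -0.011 over all tested genes. Slc39a7, which releases zinc from the endoplasmic reticulum and Golgi, had both the highest level and the smallest p of these. It had 45.74, 41.23, 43.54 and 43.23 FPKM on high Pi, against 47.29, 46.11, 46.91 and 46.17 FPKM on normal Pi. All mice on high Pi were below all on normal Pi, but the log2 fold change was -0.10 (adjusted p = 0.647 by limma-trend). Slc39a4, the intestinal importer, was at or below 0.10 FPKM in every mouse.

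Among 9 other ZnT genes, 6 were tested, 0 were called by limma-trend against 0 at an unadjusted p under 0.05, with a median log2 fold change of -0.005. Slc30a9, which acts in mitochondria, was the most abundant, with a mean of 37.3 FPKM on high Pi and 36.0 FPKM on normal Pi and a log2 fold change of 0.05. Slc30a7, a zinc transporter of the Golgi, had the smallest p. Its mean was 3.95 FPKM on high Pi and 4.66 FPKM on normal Pi, a log2 difference of -0.21 (adjusted p = 0.638 by limma-trend) that was -0.10 without high Pi replicate 3. Mt3, the brain metallothionein, was near the limit of detection, with 0.49, 0.17, 0.32 and 0.47 FPKM on high Pi, against 0, 0.17, 0.32 and 0.16 FPKM on normal Pi, and was not tested.

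Of 8 other genes that MTF1 or cadmium is known to regulate, 0 were called by limma-trend, beside 4 with an unadjusted p under 0.05, and the median log2 fold change was 0.11. Gclc, the catalytic subunit that limits glutathione synthesis, had the smallest p. It had 114.38, 140.68, 144.84 and 144.67 FPKM on high Pi, against 102.38, 132.90, 66.23 and 78.58 FPKM on normal Pi. The groups overlapped through high Pi replicate 1 and normal Pi replicate 2. A log2 fold change of 0.56 was fitted (adjusted p = 0.265 by limma-trend). The other 3 were chosen after their values were seen. They were Txnrd1, a thioredoxin reductase, with a log2 fold change of 0.29, and Hspa1a and Hspa1b, which encode the inducible heat shock protein HSP70, with -0.40 and -0.47. Hspa1a and Hspa1b are near-identical copies, so the division of fragments between them is uncertain. Hmox1, heme oxygenase, had 0.17 and was also named after its value was seen.

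In a list of 16 genes of copper, iron and manganese handling, 0 were called by limma-trend against 2 at an unadjusted p under 0.05, both higher on high Pi, with a median log2 fold change of -0.047. Cp, the copper-carrying ferroxidase ceruloplasmin, had 9.57, 6.11, 6.88 and 6.15 FPKM on high Pi, against 4.37, 4.99, 4.15 and 4.20 FPKM on normal Pi. The groups did not overlap, and high Pi replicate 1 was highest. Its log2 fold change was 0.57 (adjusted p = 0.102 by limma-trend). Without high Pi replicate 1 it was 0.44 and passed at 0.0202 by limma-trend, a setting that called 3.44% of all tested genes. Fth1, the ferritin heavy chain, was the other one and was named after its values were seen. It averaged 7640 FPKM on high Pi and 6173 FPKM on normal Pi, with a log2 fold change of 0.31.

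Inducers of metallothioneins other than metals were followed in lists of glucocorticoid-induced and acute-phase genes. Of 10 glucocorticoid-induced genes, 0 were called by limma-trend against 1 at an unadjusted p under 0.05, with a median log2 fold change of 0.056. This gene, Errfi1, a feedback inhibitor of the EGF receptor, averaged 256 FPKM on high Pi and 188 FPKM on normal Pi (log2 fold change 0.44, adjusted p = 0.190 by limma-trend). Of 10 tested genes among 14 of the acute-phase and STAT3 response, 0 were called by limma-trend against 1 at an unadjusted p under 0.05, with a median of 0.051. This gene, Lcn2, which encodes the iron-siderophore carrier lipocalin 2, had 5.56, 2.45, 5.52 and 3.79 FPKM on high Pi, against 2.40, 2.59, 1.31 and 1.55 FPKM on normal Pi. Normal Pi replicate 2 lay above high Pi replicate 2, so the groups overlapped. The fitted difference was 0.82 (log2 scale, adjusted p = 0.156 by limma-trend). Over the 7 lists of related genes 57 genes were tested, and 8 had an unadjusted p under 0.05, 6 of them higher and 2 lower on high Pi, beside the 9.35% of all tested genes (563 higher and 595 lower). With libraries weighted by their fit, 4 of the 57 passed limma-trend, namely Cp, Gclc, Errfi1 and Lcn2, all higher on high Pi, where the same weighting called 3.76% of all tested genes (1.66% higher).

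Markers of other cell types also differed between libraries. Summed FPKM of 8 leukocyte and macrophage markers was 72.2 to 97.0 on high Pi and 60.5 to 75.1 on normal Pi, with 0 of 7 tested genes called by limma-trend, 3 with an unadjusted p under 0.05, and all 7 above 0 in log2 fold change. For 6 fibroblast and pericyte markers the sum was 33.4 to 63.8 on high Pi and 31.2 to 42.5 on normal Pi, with 0 called and 2 at an unadjusted p under 0.05. For 7 endothelial markers it was 252 to 312 on high Pi and 219 to 257 on normal Pi, with 0 called and 3 at an unadjusted p under 0.05. The sum of 6 adipocyte markers was 43.3 to 146 on high Pi and 34.2 to 69.2 on normal Pi. Most of it was Fabp4, the 1 tested gene, which was not called but had an unadjusted p under 0.05. The highest sums were 110 and 146 in high Pi replicates 3 and 4 and 69.2 in normal Pi replicate 1. Adipoq had 6.49, 15.83 and 3.88 FPKM in those mice and at most 0.13 FPKM in the others. Further sums set high Pi replicate 1 apart from the other mice on its diet. It had 376 against 728 to 763 FPKM for S3 markers, and 597 against 394 to 410 for the distal convoluted tubule. Of the S3 markers, Slc5a1 went the other way (22.74 against 15.24 to 16.22 FPKM), while Slc7a13, Slc22a7, Atp11a and Cyp7b1 were lowest there. It had 143 against 80.8 to 83.2 for intercalated cells, 141.5 against 103 to 105 for podocytes, and 994 against 555 to 703 for tubule injury. The loop of Henle and collecting duct sums did not set it apart. None of these lists had a marker at 0 in every library. The part of all these markers, and of the S1 and S2 sum, lower mainly through Slc34a1, in the values of Mt1, Mt2 and Slc39a10 was not tested.

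The genes whose profile over the 8 mice was most like that of Mt2 were Id3, Ifitm3, Hpgd, Pvalb and Trp53i11, in that order. Likeness was the root mean square difference between the log2(FPKM + 1) profiles after subtracting each gene's mean, over 11344 genes with a mean of at least 1 FPKM. The difference was 0.129 for Id3, 0.147 for Ifitm3, 0.149 for Hpgd, 0.154 for Pvalb and 0.158 for Trp53i11, and Mt1 came next with 0.158. Id3, an inhibitor of helix-loop-helix transcription factors, had 65.96, 72.62, 90.43 and 83.12 FPKM on high Pi, against 42.88, 45.18, 48.05 and 54.07 FPKM on normal Pi. It was highest in high Pi replicate 3, as Mt2 was. Pvalb, the calcium-binding marker of the distal convoluted tubule, had 51.65, 49.98, 55.66 and 48.07 FPKM on high Pi, against 37.44, 32.00, 33.65 and 42.32 FPKM on normal Pi. Its log2 fold change was 0.49 (adjusted p = 0.0420 by limma-trend), the only call in the marker lists, where 0.178% of all tested genes were called higher. Both high Pi replicate 3 and normal Pi replicate 4 were the highest of their diets, as for Mt2. The other 3 markers of that segment lay on the other side of 0, with log2 fold changes of -0.14 for Slc12a3, -0.09 for Calb1 and -0.12 for Trpm6. The likeness includes the diet difference for which Mt2 was chosen, and the 8 points share libraries, so it is a description only. Of the 5 zinc transporters among the members, Slc39a8 stood at rank 1839 and Slc39a10 at rank 11138.

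**Figure D5:**
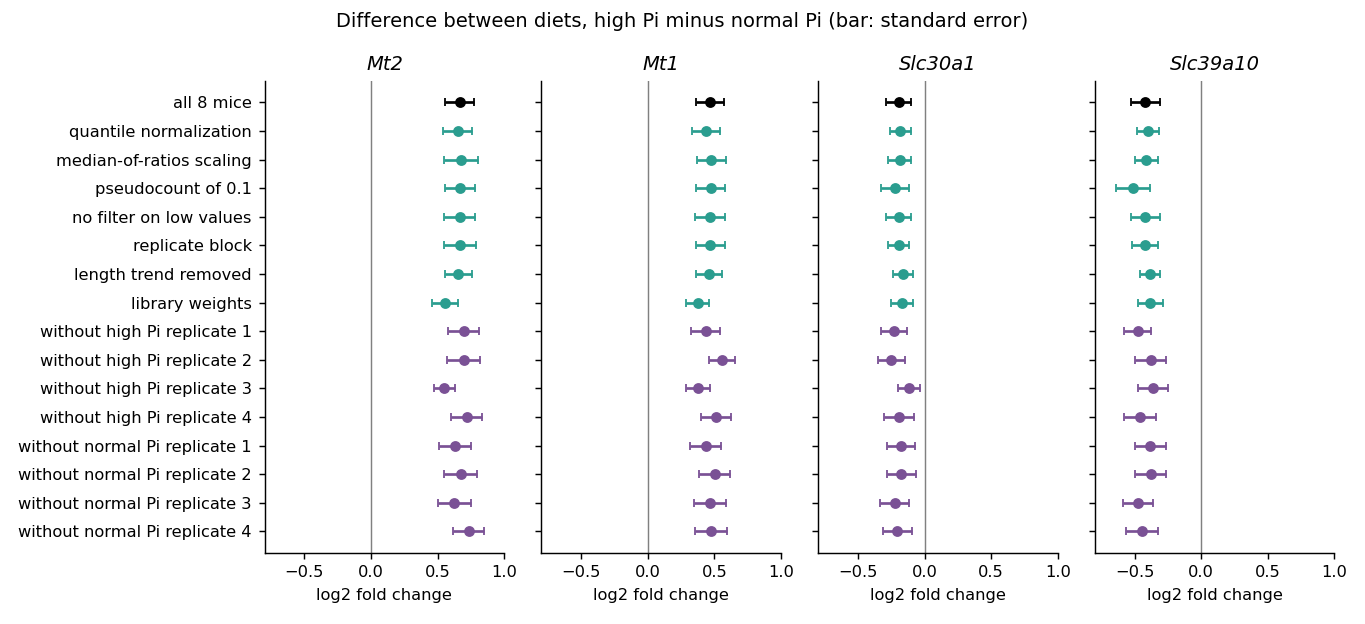
Log2 fold change (x axis, high Pi minus normal Pi, bars are standard errors) of Mt2, Mt1, Slc30a1 and Slc39a10 in all 8 mice (black), with other processing settings (green) and with 1 library left out (purple). Mt2 and Mt1 stay above 0 and Slc30a1 and Slc39a10 stay below 0 in every setting shown, with Mt2 between 0.55 and 0.73. Mt2, Mt1 and Slc39a10 have no overlap between diets, so leaving out 1 library could not change their sign. Mt2 also chose the set.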

How the data were processed

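Kidney cortex RNA was sequenced by the authors on the BGI DNBSEQ platform, and their processing notes name HISAT, Bowtie2 and GRCm38.p6. Tool versions and gene models are not given in the sources used here. The authors deposited FPKM per gene and per transcript, scaled to each library's total. Diets and replicate numbers came from the sample labels, and age, sex and time on the diet from the study's methods.

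Values entered limma-trend (limma 3.58.1, R 4.3.3) as log2(FPKM + 1). The 12383 genes and 22595 transcripts that reached 0.5 FPKM in 4 or more mice were tested for high Pi against normal Pi, with Benjamini-Hochberg correction within each table and a threshold of 0.05. Nothing marks the mice as littermates or as a batch. The fit was tested on simulated data. Exact permutation tests used all 70 assignments of 8 mice. The planned test of the Mt1 to Mt2 ratio was not run, because Mt2 chose the set. The members and all gene lists were chosen with earlier results of these data known. Named genes were the 8 members, the gene with the smallest p of each list with no call, the most abundant ZIP, ZnT and metallothionein gene, and the 5 genes most like Mt2. Alternatives were quantile normalization, median-of-ratios scaling, a smaller pseudocount (0.1), testing without the filter, a replicate block, removal of a length trend, library weights and leaving out each mouse. Gene IDs (17346) were matched to RefSeq on GRCm38.p6, and 23 symbols turned into dates were restored from them. Python 3.11.15, numpy 2.4.6, pandas 2.3.3 and matplotlib 3.10.9 served for descriptions and plots.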

Additional observations from a re-analysis of the deposited data

Results flagged for a closer look

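Among 50 groups of 4 mice examined for a mouse far from the others of its diet, 2 were found, and chance gives about 1 in 20. Mt2 in high Pi replicate 3 was 212.78 FPKM, against 149.99 to 157.78 FPKM in the other mice on high Pi. Gclc in high Pi replicate 1 was 114.38 FPKM, against 140.68 to 144.84 FPKM in the other mice on high Pi.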

How the results depend on the processing

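The log2 fold change of Mt2 (0.66) lay between 0.55 and 0.73 in the 15 alternatives. It moved by less than the SD between mice of a diet (0.193 on the log2 scale). Leaving out 1 of 4 mice cannot move the difference by that SD, so for those alternatives the comparison could not fail. In the other settings, where it could, the log2 fold change was 0.56 to 0.67. With library weights, 2 members other than Mt2 passed the limma-trend threshold (Mt1 at an adjusted p of 0.0321 and Slc39a10 at 0.0372), 4 related genes passed (Errfi1, Lcn2, Cp and Gclc), and 205 genes were called higher and 261 lower. Testing without the filter gave 6 higher and 2 lower among more genes. With 1 library left out, the counts ranged over 3 to 156 higher, 1 to 267 lower, 0 to 1 members other than Mt2 and 0 to 1 related genes. Without high Pi replicate 1 these were 156, 267, 1 (Slc39a10) and 1 (Cp), and the cause was not tested. The adjusted p of Mt1 ranged over 0.0557 to 0.316 with 1 library left out. Slc39a5 reversed to -0.0515 without high Pi replicate 1 and to -0.0041 without normal Pi replicate 1 (range with 1 library left out -0.0515 to 0.2052), the cause of which was not tested. Member transcripts called stayed at 0 in all 13 alternatives. With the replicate block, 8 genes were called higher and 3 lower, and the count of members other than Mt2 stayed at 0. Deviations of same-numbered mice had correlations of -0.209, -0.011, 0.061 and -0.121, beside -0.202 to 0.26 for mice with different numbers. These values show no sign of pairing by number, but they cannot exclude it. Depth limited Slc39a14 most, with 140 fragments in its lowest library, a counting error of 8.44%.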
